A study of Mus musculus with 4 samples.

Results

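The centromere and kinetochore genes were taken by symbol: every gene with a *Cenp* symbol, together with *Ndc80*, *Nuf2*, *Spc24*, *Spc25*, *Mis12*, *Dsn1*, *Nsl1*, *Pmf1*, *Knl1*, *Zwint*, *Ska1*, *Ska2*, *Ska3*, *Zw10*, *Zwilch*, *Kntc1* and *Spdl1*. This gave 38 of the 21957 genes in the table, spread over 16 chromosomes. Of these, 17 belong to the centromere and inner kinetochore, 19 to the outer kinetochore, and 2 carry a *Cenp* symbol without being kinetochore subunits. The genes were measured by RNA-seq in mouse oocytes at the germinal vesicle (GV) stage and after culture with or without tubastatin A (TubA), a small molecule developed as an inhibitor of the cytoplasmic deacetylase HDAC6.

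All oocytes came from PMSG-primed B6D2F1 (C57BL/6 x DBA) females aged 6 to 8 weeks and were stripped of cumulus cells, and each library was made from a pool of 100 oocytes. The GV library was untreated and collected at 0 h. The MII library (titled as an embryo in the labels) held oocytes cultured for 12 h in M16 medium without TubA and taken only where a polar body had been extruded. The TubA-10 and TubA-20 libraries held oocytes cultured for 12 h with 10 or 20 μM TubA, and no such selection is stated for them. The titles give these doses, whereas the treatment field of the labels has 20 μM at TubA-10 and 11 μM at TubA-20. A culture with the solvent DMSO alone is not described.

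There was 1 library per condition, so the spread between replicates is unknown and no difference below has a p-value. Levels are FPKM (fragments of a transcript, scaled to its length and to the mapped fragments of the library), and changes are log2 ratios of FPKM + 1, a scale on which low genes change less than their FPKM. Higher or lower past 2-fold refers to that scale. The mRNA was captured by its poly(A) tail and scaled to the library total. A lower amount of an mRNA per oocyte, a shorter tail and a higher amount of all other mRNA therefore cannot be told apart.

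The kinetochore is the protein structure that ties each chromosome to spindle microtubules. Its inner layer, the constitutive centromere-associated network (CCAN), sits on nucleosomes with the histone H3 variant CENP-A. Its outer layer, built on the KNL1, MIS12 and NDC80 complexes, holds the microtubule and recruits the spindle checkpoint. In mammalian oocytes transcription is low from the end of growth until after fertilization, and the proteins of both meiotic divisions are made from stored mRNA. A well-known control of that mRNA is the cytoplasmic polyadenylation element (CPE), a U-rich motif near the 3′ end that is bound by CPEB1.

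Before the levels, the sequences are shown that separate members with a CPE from those without. The motif was searched as TTTTAT or TTTTAAT on the transcript strand in the last 100 bases of the 3′ UTR of the principal GENCODE M21 transcript, and 7 members held it. The capitals mark it in the following 30-base stretches of the GRCm38 genome, written 5′ to 3′ on the transcript strand. In *Cenpu* the capitals mark the poly(A) signal ATTAAA as well, just before the CPE.

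Cenpe (chr3:135273514-135273543, plus strand): ttgaaggaaaaTTTTAATctttccagatgg
Cenph (chr13:100759717-100759746, minus strand): catgcattttacTTTTATaacttaaggaat
Cenpn (chr8:116941429-116941458, plus strand): cttctcgtgatcTTTTATccatggcacact
Cenpu (chr8:46579978-46580007, plus strand): ataagagataATTAAAcatTTTTAATctgt
Ndc80 (chr17:71496164-71496193, minus strand): tataacatagtaTTTTATccccaaattatg
Ska2 (chr11:87124568-87124597, plus strand): aatggttacctTTTTAATgtatttgcatcc
Spdl1 (chr11:34809228-34809257, minus strand): gtgtaatttagaTTTTATgactcaaacatc

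Next, 8 members without a CPE in that window are shown at their poly(A) signal, chosen by their changes: the first 6 were more than 2-fold lower than GV in at least 1 cultured library, and *Cenpf* and *Cenpv* more than 2-fold higher. *Spc24* holds a CPE further upstream in its 3′ UTR. Here the capitals mark AATAAA or ATTAAA, which may overlap, searched on the transcript strand in the last 40 bases. Of the genes kept with a 3′ UTR of at least 100 bases, 77.2% have such a signal there, as do 27 of 36 members.

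Cenpt (chr8:105844677-105844706, minus strand): gaaaggaataggaATTAAAgactttatact
Cenpx (chr11:120710948-120710977, minus strand): caaagcaacatcAATAAAtcaacaccatct
Cenpl (chr1:161086296-161086325, plus strand): ccaatttagtcaAATAAActtacctaaaat
Spc24 (chr9:21755442-21755471, minus strand): actcacatacATTAAATAAAtactcttttt
Spc25 (chr2:69193901-69193930, minus strand): tctgcttgtgttAATAAActtgcttgttgt
Ska3 (chr14:57806567-57806596, minus strand): tacataatgtaaAATAAAtgattttctgag
Cenpf (chr1:189640609-189640638, minus strand): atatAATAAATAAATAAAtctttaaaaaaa
Cenpv (chr11:62524952-62524981, minus strand): gatcttttagaaAATAAAtatttctgacat

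Of all genes, 10199 had a mean of at least 1 FPKM over the 4 libraries and were kept, and 37 of the 38 members were among them. The FPKM of all genes summed to between 568331 and 627340 per library. By the step between low FPKM values, a rough estimate, MII and TubA-10 were 1.62 and 1.70 times as deep as GV, and TubA-20 was 0.897 times as deep. Near that step lay 6.55% and 7.59% of the genes in range for MII and TubA-10, and 26.9% for TubA-20. The read totals in the paper put TubA-20 above GV instead. All 12 oocyte markers were above 1 FPKM in every library, with sums from 10337 in GV to 14253 FPKM in TubA-20. Their median was 547 FPKM in GV, 689 in MII, and 562 and 361 in TubA-10 and TubA-20. The 12 cumulus and granulosa cell markers summed to 18.7 FPKM in GV, 21.1 in MII, and 19.9 and 23.7 in TubA-10 and TubA-20. Only 2 to 4 of them reached 1 FPKM in a library. *Cyp19a1* and *Nr5a2* made up most of the sum, the granulosa transcription factor *Foxl2* was at 0 in all libraries, and *Fshr*, *Amh* and *Lhcgr* were at 0 in both TubA libraries. The cumulus expansion genes *Tnfaip6* and *Ptx3* were at 0 in GV and at 1.57 and 1.19 FPKM in TubA-20, and *Has2* went from 0.142 to 0.355 FPKM. The part of these cells in the results was not tested. The 6 blood cell markers summed to between 1.64 and 2.30 FPKM, nearly all from *Cd68*, with the globin genes at 0.

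As a set, the kinetochore mRNAs were abundant. The median member stood at 52.4 FPKM in GV, 47.7 in MII, and 41.9 and 43.7 in TubA-10 and TubA-20, against 10.6 to 12.3 for the genes kept. The most abundant was *Cenps* in every library, and the least abundant of those kept was *Cenpi* in GV, *Ska2* in MII, *Nsl1* in TubA-10 and *Cenpt* in TubA-20. In the plot of levels by library the cultured samples mostly lay on 1 side of GV, with 12 members highest in GV and 16 lowest there. All genes kept behaved much alike, with 36.5% highest and 45.5% lowest in GV, against 32.4% and 43.2% of the members.

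**Figure D1:**
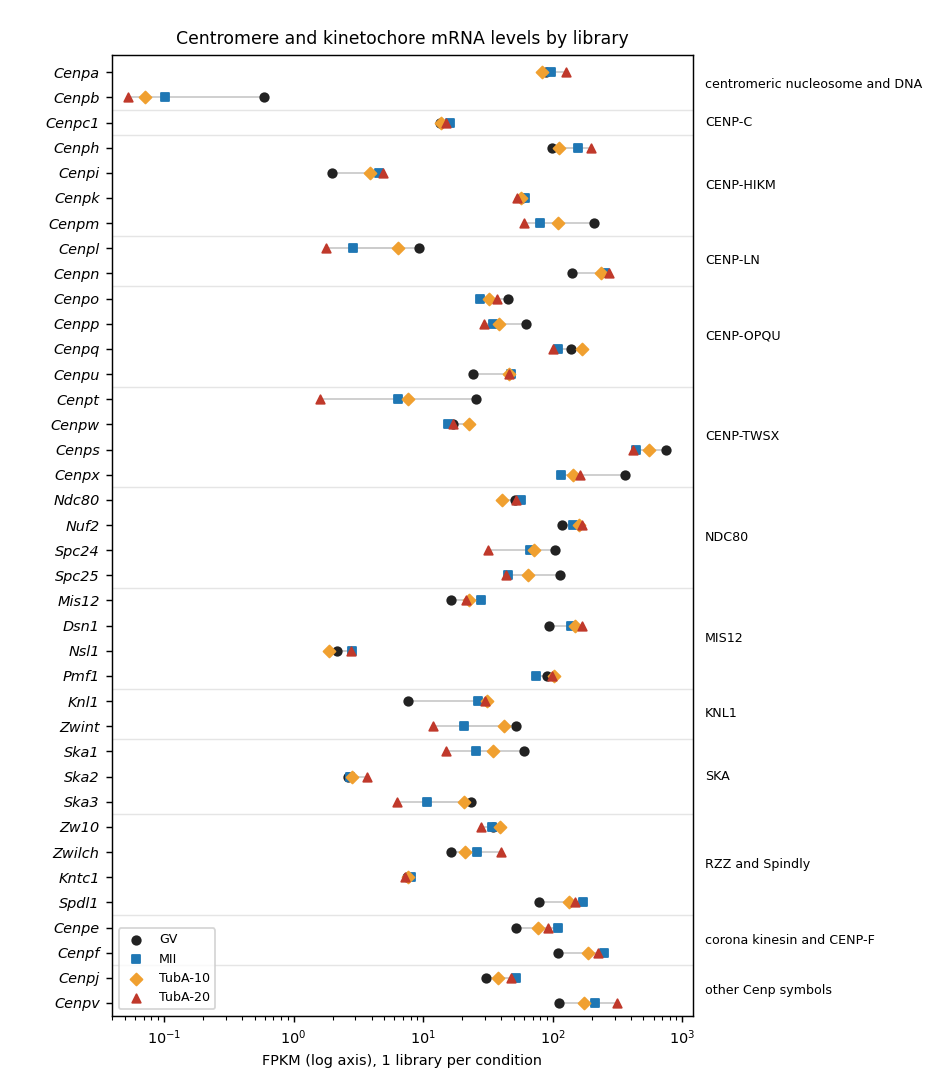
FPKM of the 38 members on a log axis, 1 row per gene grouped by complex, with 1 point per library (circles GV, squares MII, diamonds TubA-10, triangles TubA-20) and a grey line over their range. Cenpt spans from 25.6 FPKM in GV to 1.59 in TubA-20 and Knl1 from 7.60 in GV to 31.2 in TubA-10, while Cenpk, Kntc1 and Zw10 have their points close together.

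The median inner kinetochore gene stood below GV and the median outer gene slightly above it in each cultured library. The median log2 change of the 16 inner members kept was -0.23 in MII, and -0.07 and -0.20 in TubA-10 and TubA-20. For the 19 outer members it was 0.15, 0.18 and 0.26, and for all genes kept 0.07, 0.10 and 0.12. These comparisons share the GV library. The outer median exceeded the inner one by 0.38 in MII, and 0.24 and 0.46 in TubA-10 and TubA-20, but both groups were wide, with inner changes from -1.85 to 0.94 and outer changes from -1.31 to 1.67 in MII. The sign of the inner median in TubA-10 depended on scaling and became 0.20 with equal *Gapdh*. The outer medians went down to 0.03, 0.04 and 0.08 when the median change of genes above 1 FPKM throughout was set to 0, so their distance from 0 rests on the scaling.

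Summed and median levels of the groups gave different pictures. The inner members together had 2043 FPKM in GV, 1465 in MII, and 1629 and 1537 in TubA-10 and TubA-20. The outer members had 1036, 1238, 1210 and 1195 FPKM in the same order. The inner sum rests largely on 2 small histone-fold genes, *Cenps* and *Cenpx*, described below. The median level of an inner member was 60.0 FPKM in GV and between 49.4 and 54.4 in the cultured libraries. That of an outer member was 51.7 FPKM in GV and between 31.6 and 40.6 after culture. By median level the outer group was thus the lower one in GV as well as after culture.

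**Figure D2:**
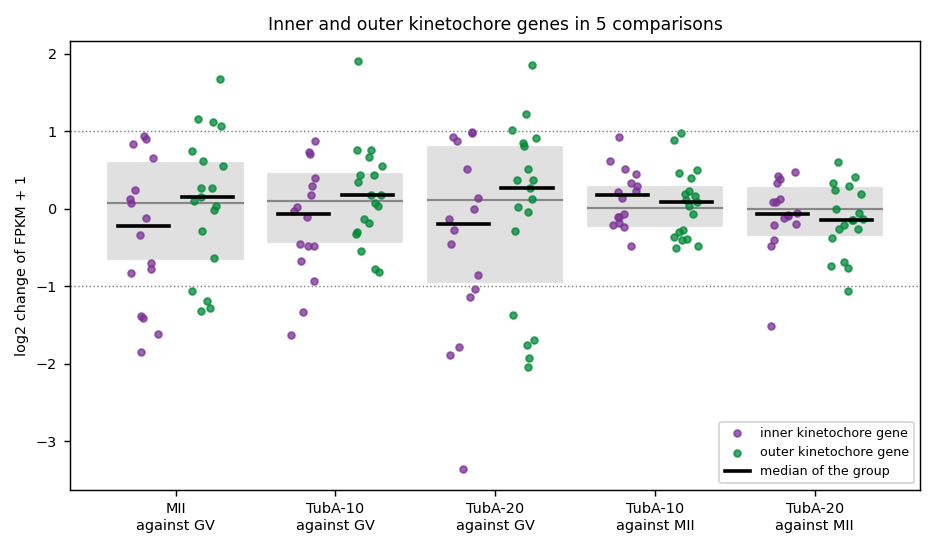
Log2 change of FPKM + 1 of each inner (purple, n = 16) and outer (green, n = 19) member in 5 comparisons of 1 library with 1 library, where black bars are group medians, grey boxes hold the middle 50% of the genes kept with their median as a grey line, and dotted lines mark 2-fold. The inner medians lie below and the outer medians above 0 in the 3 comparisons with GV, and both clouds are narrower against MII.

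In MII, 4 members were more than 2-fold higher than in GV, where 6.5% of the genes kept were, and 8 were more than 2-fold lower, where 17.2% were. All 4 higher members were outer: *Knl1*, *Spdl1*, *Cenpe* and *Cenpf*. The inner *Cenpi*, low in level, stood at 0.89, and at 1.16 and 1.19 with 0.1 or 0.01 added in place of 1. With equal *Gapdh* the inner members *Cenpi*, *Cenpn* and *Cenpu* passed 2-fold as well, so the outer-only result rests on the scale. The lower ones were 4 inner members (*Cenpt*, *Cenpx*, *Cenpm*, *Cenpl*) and 4 outer members (*Spc25*, *Zwint*, *Ska1*, *Ska3*). In TubA-10, 1 member was past 2-fold higher than in GV (1.53% of the genes kept) and 2 were past it lower (11.5%). These were *Knl1* on the higher side and *Cenpt* and *Cenpx* on the lower side. In TubA-20, 4 members were higher (16.2%) and 10 lower (23.9%). The higher ones were *Knl1*, *Cenpf*, *Zwilch* and *Cenpv*, and the lower ones were the 8 lower in MII with *Spc24* and *Cenpp* added. With 37 members, 4 make 10.8%, 8 make 21.6% and 10 make 27.0%, so the shares stood not far from those of all genes. The balance depended on scaling, for all genes as for the members. With equal *Gapdh*, 8 were higher and 6 lower in MII (14.6% and 13.5% of the genes kept). TubA-10 then had 5 and 2 (7.0% and 7.79%), and TubA-20 had 6 and 9 (18.6% and 22.8%).

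At the base of the inner kinetochore *Cenpa* and *Cenpc1* differed modestly between the libraries, *Cenpa* more than *Cenpc1*. *Cenpa*, the histone H3 variant that marks the centromere, had 88.8 FPKM in GV, 97.0 in MII, and 82.6 and 127 in TubA-10 and TubA-20. *Cenpc1*, which binds the CENP-A nucleosome and bridges it to the outer layer, had 13.5, 16.1, 13.8 and 15.0 FPKM in the same order. Neither passed 2-fold in any comparison. A stretch of 319 bases of *Cenpc1* is nearly identical to the opposite strand of *Gtdc1*, and its effect on the values was not tested. *Cenpb*, which binds a motif of centromeric satellite DNA, was the member not kept, at 0.597 FPKM in GV and 0.0530 to 0.102 in the cultured libraries. It overlaps *Spef1* on the same strand, so its low values are uncertain.

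The CENP-H, I, K and M subunits form 1 complex of the CCAN, and their mRNAs took separate courses. *Cenpm* had 208 FPKM in GV, 79.5 in MII, and 109 and 59.7 in TubA-10 and TubA-20, a log2 change of -1.38 in MII and -1.79 in TubA-20. *Cenph* had 98.7, 155, 111 and 197 FPKM and stopped just short of 2-fold in TubA-20 at 0.99. *Cenpm* was thus the more abundant mRNA in GV and *Cenph* in the cultured libraries, though only narrowly in TubA-10. *Cenpi* was low throughout, at 1.98, 4.53, 3.86 and 4.88 FPKM. Its log2 changes of 0.89 in MII and 0.98 in TubA-20 passed 2-fold with smaller pseudocounts. *Cenpk* stayed between 53.1 FPKM in TubA-20 and 61.1 in MII.

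CENP-L and CENP-N pair up in the CCAN, and CENP-N reads the CENP-A nucleosome. Their mRNAs lay on opposite sides of GV. *Cenpn* had 142 FPKM in GV, 254 in MII, and 237 and 271 in TubA-10 and TubA-20. *Cenpl* had 9.33 FPKM in GV, 2.88 in MII, and 6.39 and 1.79 in TubA-10 and TubA-20, with log2 changes of -1.41 in MII and -1.89 in TubA-20.

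In the CENP-O, P, Q and U complex, which helps recruit Polo-like kinase through CENP-U, 1 member was higher than GV in all cultured libraries and 2 were lower in all of them. *Cenpu* had 24.4 FPKM in GV, 47.7 in MII, and 45.6 and 45.8 in TubA-10 and TubA-20, so the cultured libraries were nearly equal. *Cenpp* had 62.0, 34.6, 38.3 and 29.6 FPKM and passed 2-fold in TubA-20 at -1.04, though not with equal *Gapdh* (-0.97). *Cenpo* had 45.4, 27.6, 32.2 and 37.4 FPKM. *Cenpq* was highest in TubA-10, with 138, 110, 169 and 100 FPKM. Of these genes *Cenpo*, *Cenpp* and *Cenpu* overlap genes of the other strand, as do *Mis12* and *Zwilch* below, and the methods give a strand-specific counting.

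The CENP-T, W, S and X histone-fold complex included the lowest change of all members, and its 4 mRNAs summed to 1152 FPKM in GV, 574 in MII, and 723 and 594 in TubA-10 and TubA-20. *Cenpt* (chr8:105844673-105853278, minus strand), whose product recruits NDC80 complexes by its long tail, had 25.6 FPKM in GV, 6.37 in MII, and 7.65 and 1.59 in TubA-10 and TubA-20. Its log2 change from GV was -1.85 in MII, and -1.62 and -3.36 in TubA-10 and TubA-20. Each was the lowest of any member in its comparison. Among the genes kept *Cenpt* stood at the 66.9th percentile of level in GV and at the 12.5th in TubA-20.

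*Cenpx* and *Cenps*, which also act in DNA repair with FANCM, are short mRNAs present at high levels. *Cenpx* had 359 FPKM in GV, 116 in MII, and 142 and 162 in TubA-10 and TubA-20, with log2 changes of -1.62, -1.33 and -1.14. *Cenps* had 751, 436, 550 and 413 FPKM, less than 2-fold from GV in each. The fourth subunit, *Cenpw*, did not share this pattern, at 17.1, 15.6, 22.8 and 17.1 FPKM. *Cenpt* was thus lowest in TubA-20, while *Cenpx* was lowest in MII.

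**Figure D3:**
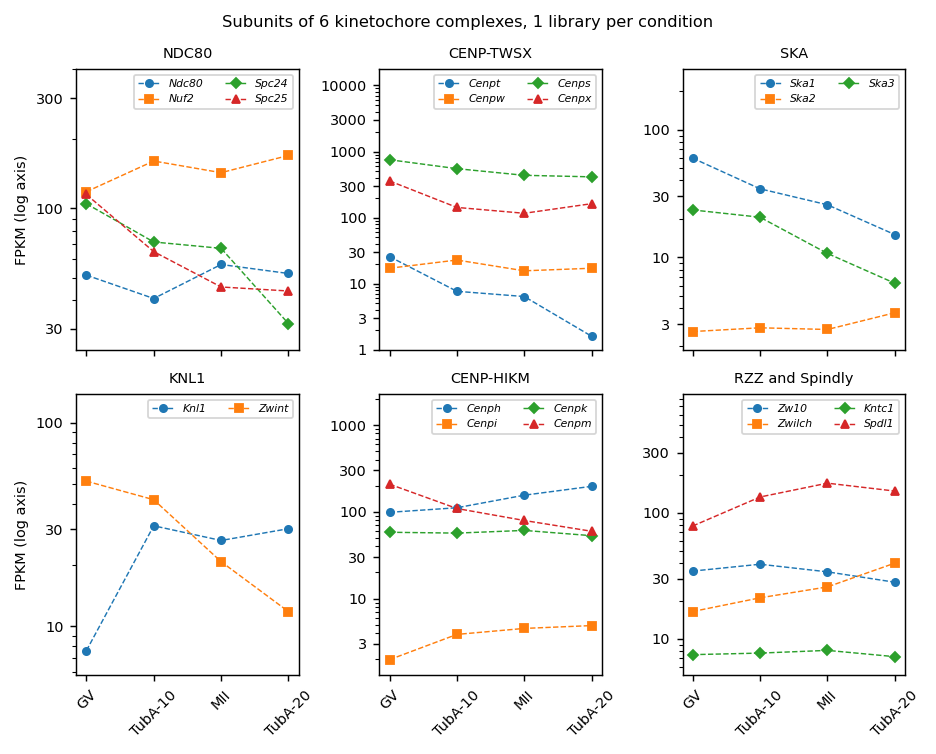
FPKM on a log axis of the subunits of 6 complexes in the GV, TubA-10, MII and TubA-20 libraries, 1 point per library, with dashed lines only to help follow a gene. Subunits of the same complex part from each other, as Spc24 and Spc25 from Ndc80 and Nuf2, and Knl1 and Zwint cross.

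The NDC80 complex, the main microtubule coupler, is a rod with NDC80 and NUF2 at the microtubule end and SPC24 and SPC25 at the centromere end. The mRNAs of the microtubule end stayed within 1.5-fold over the 4 libraries. *Ndc80* had 51.2 FPKM in GV, 57.0 in MII, and 40.6 and 52.1 in TubA-10 and TubA-20, and *Nuf2* had 118, 143, 160 and 169. Those of the centromere end were lower than GV in all cultured libraries. *Spc25* had 115 FPKM in GV, 45.5 in MII, and 64.8 and 43.7 in TubA-10 and TubA-20, with log2 changes of -1.31 in MII and -1.37 in TubA-20. *Spc24* had 105, 67.0, 71.3 and 31.6 FPKM, a log2 change of -0.64 in MII and of -1.70 in TubA-20. Stretches of 202 and 303 bases of *Ndc80* are nearly identical to pseudogenes, so its values are uncertain.

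The MIS12 complex joins the inner kinetochore to NDC80 and KNL1, and none of its 4 mRNAs passed 2-fold from GV. *Dsn1* had 93.1 FPKM in GV, 137 in MII, and 149 and 168 in TubA-10 and TubA-20, the widest range of the complex. *Mis12* had 16.4, 28.2, 22.6 and 21.5 FPKM and *Pmf1* 90.8, 74.2, 103 and 98.9. *Nsl1* was low, at 2.16, 2.81, 1.89 and 2.80 FPKM. Its 3′ UTR, with 4025 bases, was the longest among the members.

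KNL1, the scaffold on which BUB1 and BUB3 gather for the checkpoint, and its partner ZWINT gave the widest split within a complex in each comparison with GV. *Knl1* (chr2:119047119-119105501, plus strand) had 7.60 FPKM in GV, 26.4 in MII, and 31.2 and 30.2 in TubA-10 and TubA-20, with log2 changes of 1.67, 1.90 and 1.86. It was the highest change of any member in each of the 3 comparisons with GV, and the cultured libraries lay close together. *Zwint* (chr10:72654845-72674964, plus strand) had 51.7 FPKM in GV, 20.8 in MII, and 41.9 and 11.8 in TubA-10 and TubA-20. Its log2 change from GV was -1.27 in MII, and -0.30 and -2.04 in TubA-10 and TubA-20. *Zwint* was thus the more abundant partner in GV and TubA-10, and *Knl1* in MII and TubA-20.

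The SKA complex strengthens the grip of NDC80 on shortening microtubules, and 2 of its 3 mRNAs were lower after culture. *Ska1* had 59.9 FPKM in GV, 25.8 in MII, and 34.4 and 15.1 in TubA-10 and TubA-20. *Ska3* had 23.5, 10.7, 20.6 and 6.26 FPKM. Both were below a log2 change of -1 in MII, at -1.18 and -1.06, and in TubA-20, at -1.92 and -1.75, but not in TubA-10. In MII the call of *Ska1* was lost with equal *Gapdh* and that of *Ska3* with equal *Gapdh* or equal FPKM sums. *Ska2* was low and level, at 2.62, 2.72, 2.80 and 3.67 FPKM, and shares 360 bases at 97.2% identity with a pseudogene, so it is uncertain.

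The RZZ complex (ROD, encoded by *Kntc1*, with ZW10 and ZWILCH) and the dynein adaptor Spindly (*Spdl1*) build the corona around unattached kinetochores. *Kntc1* had 7.49 FPKM in GV, 8.10 in MII, and 7.71 and 7.22 in TubA-10 and TubA-20, and *Zw10* had 34.5, 34.0, 39.1 and 28.2. Both were among the 10 members that stayed within 1.5-fold over all 4 libraries (27.0%, against 25.4% of the genes kept). *Zwilch* had 16.5, 25.8, 21.2 and 39.9 FPKM and passed 2-fold in TubA-20 at 1.23. *Spdl1* had 78.7 FPKM in GV, 172 in MII, and 134 and 149 in TubA-10 and TubA-20, a log2 change of 1.12 in MII.

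The large corona proteins were among the higher members. *Cenpe*, a plus-end kinesin that carries chromosomes to the spindle equator, had 52.4 FPKM in GV, 111 in MII, and 77.3 and 92.3 in TubA-10 and TubA-20. *Cenpf*, a coiled-coil protein that binds microtubules and dynein regulators, had 110, 246, 187 and 223 FPKM. Their log2 changes in MII were 1.06 and 1.16, and that of *Cenpf* in TubA-20 was 1.01. With the median change of genes above 1 FPKM throughout set to 0, *Cenpe* and *Spdl1* in MII came to 0.94 and 0.995, just under 2-fold, and *Cenpf* in TubA-20 to 0.82. From low to high the order was GV, TubA-10, TubA-20, MII for *Cenpe*, *Cenpf* and *Spdl1* alike.

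The 2 genes with a *Cenp* symbol outside the kinetochore were both lowest in GV. *Cenpj*, a centriole assembly gene, had 30.7 FPKM in GV, 52.3 in MII, and 37.9 and 47.3 in TubA-10 and TubA-20. *Cenpv*, known from centromeric chromatin organization, had 111, 211, 174 and 315 FPKM, and its log2 change of 1.49 in TubA-20 was second to that of *Knl1*.

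Against MII, the matured control of the same culture time, few members stood apart. The paper reports that TubA impaired the passage to MII and describes an arrest before that stage at the higher dose. The MII library held only oocytes with a polar body. Drug and meiotic stage thus differed together in these comparisons, and their separate parts were not tested. In TubA-10 no member was more than 2-fold higher (1.05% of the genes kept) or lower (0.235%) than in MII. The nearest to it were *Zwint* at 0.98, *Cenpl* at 0.93 and *Ska3* at 0.88, all toward the GV level, and with pseudocounts of 0.1 or 0.01 both *Zwint* and *Cenpl* passed 2-fold. In TubA-20 no member was higher past 2-fold (0.608%) and 2 were lower (5.22%): *Cenpt* at -1.51 and *Spc24* at -1.06. *Zwint* (-0.77), *Ska1* (-0.74) and *Ska3* (-0.69) came next, and *Zwilch* at 0.61 and *Cenpv* at 0.57 were the highest. The median change of the members from MII was 0.09 at the lower dose, with inner and outer medians of 0.18 and 0.09. At the higher dose it was -0.10, with inner and outer medians of -0.07 and -0.15.

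**Figure D4:**
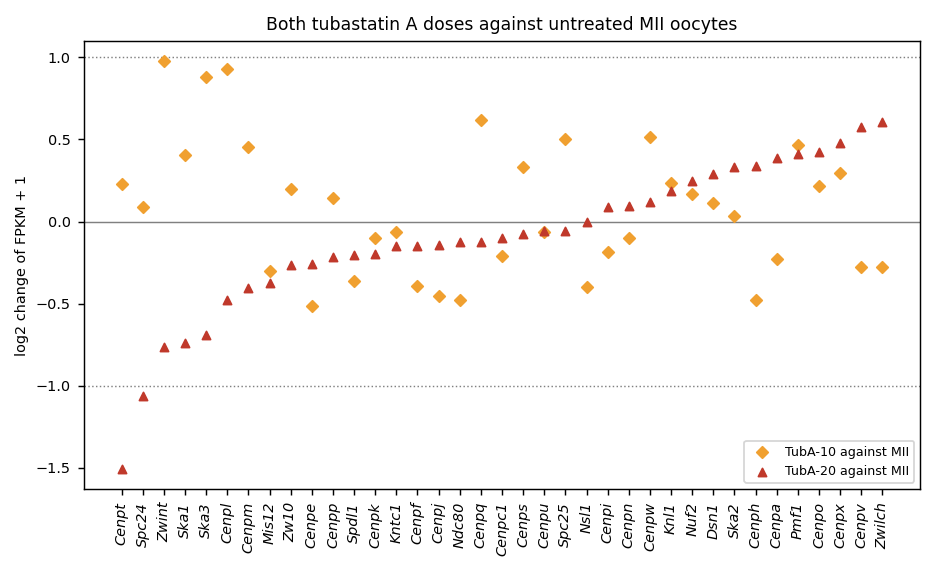
Log2 change of FPKM + 1 against the MII library for the 37 members kept, ordered by the TubA-20 change, with diamonds for TubA-10, triangles for TubA-20, 1 library each, and dotted lines at 2-fold. Only Cenpt and Spc24 lie past 2-fold, both lower in TubA-20, and Zwint, Ska3 and Cenpl are higher than MII in TubA-10 and lower in TubA-20.

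The levels of many members were ordered, as were those of many of the genes kept. TubA-10 lay between GV and MII for 25 of 37 members (67.6%, against 65.5% of the genes kept), and TubA-20 lay beyond MII on the side away from GV for 22 (59.5%, against 69.8%). The full order GV, TubA-10, MII, TubA-20 from high to low held for 10 members (27.0%, against 22.6%), namely *Cenpl*, *Cenpm*, *Cenpp*, *Cenps*, *Cenpt*, *Ska1*, *Ska3*, *Spc24*, *Spc25* and *Zwint*. The reverse order held for 5 (13.5%, against 25.4%): *Cenph*, *Cenpi*, *Cenpn*, *Cenpv* and *Zwilch*. It held for 4 members when FPKM sums were made equal (21.6% of the genes kept), for 3 with equal upper quartiles (21.5%) and for 4 with equal *Gapdh* (18.8%). Under the same scalings the order from high to low held for 10, 10 and 9 members (21.6%, 22.7% and 21.2% of the genes kept). Many of these steps are small, and without replicates neighbours in the order cannot be told from each other.

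A CPE in the last 100 bases was as frequent among the members as elsewhere, at 7 of the 36 with a 3′ UTR of at least 100 bases (19.4%, against 20.6% of the genes kept). Of the inner members 3 of 15 held one and of the outer members 4 of 19. In MII all 7 members with a CPE were higher than in GV, where 70.9% of the 1955 genes kept with one were, and 6 of 7 with the median change set to 0 (*Ska2* then being lower). Their median log2 change was 0.84, against 0.43 for those genes. Of the 29 members without a CPE there, 13 were higher and 16 lower, with a median of -0.12 (0.01 over all genes without one), and the 8 members past 2-fold lower were all among them. Of the genes kept, 8.39% with a CPE and 17.3% without were past 2-fold lower, so none of 7 is near the share of all genes. The 7 sites are those of *Cenpe*, *Cenph*, *Cenpn*, *Cenpu*, *Ndc80*, *Ska2* and *Spdl1* printed above, and *Ndc80* and *Ska2*, whose values are uncertain, were close to 0 in MII (0.15 and 0.04).

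The split was present in both TubA libraries, which were compared with the same GV library. In TubA-20, the 7 members with a CPE were again all higher than GV (72.4% of all genes with one), though *Ndc80* was lower with the median change set to 0 or with equal upper quartiles. Their median was 0.88 against 0.60 for all genes with one, and those without had a median of -0.05 (0.02 over all genes without one). In TubA-10, 6 of 7 were higher (72.0% of all genes with one), with a median of 0.55 against 0.31 for all genes with one. The members without had 0.03, against 0.07 for all genes without one. Against MII the members with a CPE had a median of -0.36 in TubA-10, with 6 of 7 lower, and of -0.06 in TubA-20. Members without one had 0.20 and -0.10 there, and all genes with one had -0.11 and 0.14. With the whole 3′ UTR searched, 19 members (52.8%) and 63.0% of the genes kept held the motif. The 19 had a median of 0.27 in MII and the other 17 had -0.78, against 0.33 and -0.37 over the genes kept. Longer 3′ UTRs hold more matches, and the median length was 588 bases for the members and 999 for the genes kept. Whether these oocytes use the annotated 3′ ends was not tested, and a match is a run of letters, not a shown binding site.

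**Figure D5:**
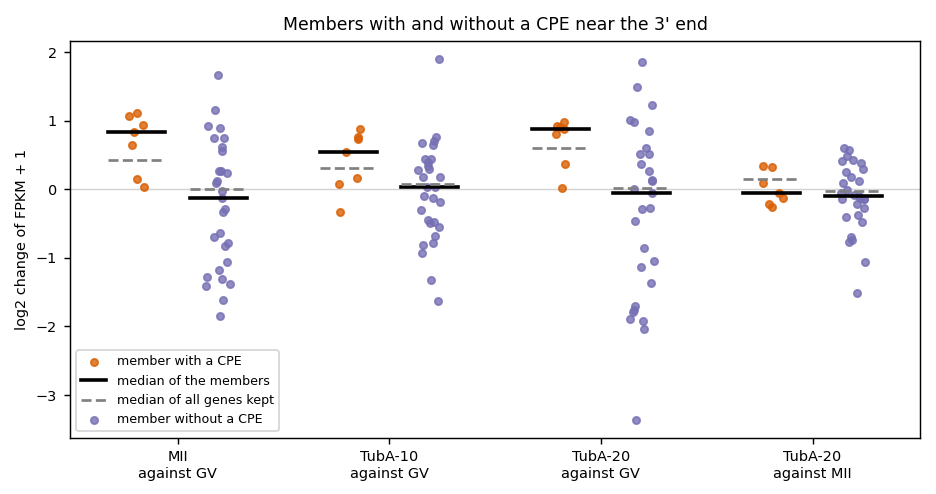
Log2 change of FPKM + 1 of members with (orange, n = 7) and without (purple, n = 29) a CPE in the last 100 bases of the 3′ UTR in 4 comparisons of 1 library with 1 library, where black bars are medians of the members and dashed grey bars are medians of all genes kept with or without the motif. In MII and TubA-20 against GV all members with a CPE lie above 0 on the deposited scale (1 of them below it under some scalings), and those without spread from -1.85 to 1.67 in MII.

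The partner genes of the kinetochore, 27 genes for CENP-A loading, the CCAN, the inner centromere, the checkpoint and microtubule partners, were all kept. Past 2-fold from GV, 1 was higher and 2 were lower in MII, none was higher and 2 were lower in TubA-10, and 3 were higher and 4 lower in TubA-20. In MII these make 3.7% and 7.41% of the list, against 6.5% and 17.2% of the genes kept. For TubA-10 the genes kept had shares of 1.53% and 11.5%, and for TubA-20 of 16.2% and 23.9%. The lowest in each of these 3 comparisons was *Meikin*, a meiosis-specific kinetochore regulator that protects cohesin, at -1.15, -1.31 and -1.47. Against MII no partner passed 2-fold. There the extremes were *Birc5* (0.39) and *Spag5* (-0.55) in TubA-10, and *Aurkc* (0.66) and *Birc5* (-0.46) in TubA-20.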

How the data were processed

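RNA-seq libraries of 4 oocyte pools, 1 per condition, were analysed. The deposited values are FPKM, made by the authors with cufflinks in a strand-specific mode on mm10 according to the methods. The submitters' processing notes name STAR 2.5.0, Cufflinks and Cuffdiff 2.2.1. The labels give TRIzol and the methods PicoPure for RNA extraction, and a series title of single cells stands beside pools of 100 oocytes in the methods. Columns were matched to samples by description and title. Of the 21959 entries, 21794 received a GENCODE M21 (GRCm38) symbol by identifier, and entries sharing a symbol were added up.

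From these values log2 ratios of FPKM + 1 were computed for genes with a mean of at least 1 FPKM over the 4 libraries, and 2-fold was used as threshold. With 1 library per condition no test was possible, and read counts were not used. Every member could be named. Members past 2-fold were given with their change, and of the partner genes the lowest and highest change of each comparison were to be named, of which the highest against GV is not reported here. *Itgb3bp*, a CCAN subunit without a *Cenp* symbol, was counted with the partners, so the inner medians and counts leave it out. Its log2 changes from GV were -1.02 in MII, and -0.97 and -1.07 in TubA-10 and TubA-20. Near-identical copies were sought among GENCODE transcripts with blastn 2.17.0. The members, gene lists and comparisons were chosen with earlier results of these data known. Alternatives were pseudocounts of 0.1 and 0.01, no minimum or 5 FPKM, 4 scalings, thresholds of 1.5-fold and 3-fold, the highest entry of a shared symbol, the group lists without *Cenpb*, *Cenpe* and *Cenpf*, and the whole 3′ UTR. Only the calling of changes past 2-fold was tested on simulated data. Python 3.11.15, numpy 2.4.6, pandas 2.3.3 and matplotlib 3.10.9 were used.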

Additional observations from a re-analysis of the deposited data

How the results depend on the processing

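Of 260 summary values recomputed under 12 alternatives, 242 moved by less than 1.5-fold (counts within 1.5 times), and no member past 2-fold changed sign. For medians and differences of medians that limit is wider than any of their values, so the tally says little about them. Taking the highest entry of a shared symbol left its 25 values as they were. Leaving out *Cenpb*, which was not kept, could not move the inner medians. The 4 scalings shift the genes of a library nearly alike, so they could hardly move the outer minus inner differences. Of 150 medians and differences of medians, 2 changed sign, both the inner median of TubA-10 against GV, which equal FPKM sums brought to 0.0092 and equal *Gapdh* to 0.20. The outer minus inner median ranged from 0.33 to 0.48 in MII against GV, 0.14 to 0.28 in TubA-10 against GV, 0.32 to 0.57 in TubA-20 against GV, -0.10 to -0.05 in TubA-10 against MII and -0.08 to -0.06 in TubA-20 against MII. Of members higher than the reference, setting the median change of genes above 1 FPKM throughout to 0 left 2 in MII against GV (3.4% of the genes kept), and equal *Gapdh* gave 8 there (14.6%), 5 in TubA-10 against GV (7.0%) and 1 in TubA-10 against MII (1.28%). Pseudocounts of 0.1 and 0.01 gave 2 and 2 in TubA-10 against MII (2.11% and 2.4%). A 1.5-fold threshold gave 12 higher in MII against GV (25.3%), 8 higher and 6 lower in TubA-10 against GV (16.2% and 20.4%), 12 higher in TubA-20 against GV (33.7%), 4 higher in TubA-10 against MII (7.7%), and 1 higher and 5 lower in TubA-20 against MII (6.05% and 14.8%). At 3-fold, 1 was higher and 2 were lower in MII against GV (0.304% and 7.52%), 1 lower in TubA-10 against GV (4.01%), 1 higher in TubA-20 against GV (1.1%) and 0 lower in TubA-20 against MII (0.588%). Searching the whole 3′ UTR raised the members with a CPE from 7 to 19 and is not among the 260 values. Other thresholds or windows count more or fewer genes by construction, and for the scalings and pseudocounts the cause was not tested. Against GV, setting that median to 0 moved the median of all genes kept by -0.13 in MII, and -0.14 and -0.19 in TubA-10 and TubA-20, and equal *Gapdh* moved it by 0.19 in MII and 0.22 in TubA-10. Equal FPKM sums moved it by 0.11 in MII against GV and -0.12 in TubA-20 against MII, where equal *Gapdh* moved it by -0.13. Members near 0, such as *Cenpk*, *Cenpw*, *Kntc1*, *Ndc80*, *Ska2* and *Zw10*, changed sign with scaling. A single library per condition limits every value here.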
